A study of Homo sapiens with 10 samples.

Results

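The genes described here encode laminin-332 chains and parts of the hemidesmosome. They were taken by symbol from the TPM table, and all 8 were found among its 58050 Ensembl gene identifiers: LAMA3, LAMB3, ITGA6, ITGB4, CD151, COL17A1, PLEC and DST. The rule used names and no measured values, but the genes were chosen with earlier results of these data known. The cells were HCT116, an established line of human colorectal carcinoma, sequenced as 5 cultures of HCT116-WT cells and 5 cultures of HCT116-CD276KO cells. The HCT116-CD276KO cells were made with a Cas9 ribonucleoprotein and a guide against CD276, and a single clone gave all of their cultures, so that an effect of the lost gene and a trait of the clone cannot be told apart. A scrambled guide is named as control for the editing, but the labels do not say whether the sequenced HCT116-WT cultures had received it. All cultures were kept in the same medium and no treatment separated them.

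Laminin-332 is a trimer that epithelial cells secrete into the basement membrane. LAMA3 encodes its α3 chain and LAMB3 its β3 chain, and the third chain is not reported here. The integrin α6β4, encoded by ITGA6 and ITGB4, binds laminin-332 from the cell surface, and the long cytoplasmic tail of β4 is tied to keratin filaments by plectin, the product of PLEC. CD151 is a tetraspanin that associates with laminin-binding integrins. In skin and other stratified epithelia the hemidesmosome also holds collagen XVII (BP180, from COL17A1) and an epithelial form of dystonin (BP230, from DST), whereas hemidesmosomes of simple epithelia such as the gut are built mainly of α6β4 and plectin. LAMA3, PLEC and DST have several start sites and isoforms, which a TPM value per gene does not separate.

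The libraries were checked first. CD276 had 38.08 to 53.61 TPM in HCT116-WT and 4.4 to 7.42 TPM in HCT116-CD276KO libraries (log2 fold change -2.85, standard error 0.13, adjusted p-value 1.39e-07 from limma). Of 7 markers of colorectal epithelium 6 reached a mean of 1 TPM, and VIL1 stayed under 0.1 TPM in every library. Their summed level was 4181 to 4954 TPM in HCT116-WT and 3317 to 3783 TPM in HCT116-CD276KO libraries. KRT8 was the highest of these markers, followed by KRT19 and KRT18. The part of this difference between the groups in the results below was not tested. Of 5 markers of stratified epithelium only KRT10 reached 1 TPM, KRT1 was at 0 in all libraries, and the sums overlapped between the groups (60.2 to 74.3 against 58.3 to 72.6 TPM). Among 6 fibroblast, 5 leukocyte and macrophage and 4 endothelial markers only COL1A1 and CD68 reached 1 TPM. COL1A1 had means of 7.31 and 5.57 TPM in HCT116-WT and HCT116-CD276KO cells, and CD68 had 13.2 and 9.58 TPM. The highest mean of the remaining markers was 0.272 TPM, that of CSF1R in HCT116-WT cells. Transcript length and GC content left marks on single libraries. The Spearman correlation over genes between length and the library's deviation from the mean of all libraries was -0.52 in HCT116-CD276KO replicate 2 and -0.49 in replicate 3, against -0.094 to 0.43 in the HCT116-WT libraries. The same correlation with GC content was 0.61 in HCT116-WT replicate 3 and 0.48 in HCT116-CD276KO replicate 2, against -0.34 to 0.023 in the remaining libraries. The study gives a depth averaged over the samples. The number of reads behind a TPM value and the depth of each library are not kept in the table, so no counting error can be given.

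Promoter windows are shown first, so that the letters at the start sites can be read beside the values below. RefSeq windows on GRCh38.p14, from 250 bases before to 50 bases after a start site, were found for 5 of the 8 genes, and LAMB3 and DST have 3 windows each, ITGA6 has 2. The following 5 of the 10 windows were selected for the laminin chains, ITGA6 and COL17A1, with 2 of the 3 windows of LAMB3 and 1 of the 2 of ITGA6 (those left out overlap a window shown). They are given 5′ to 3′ on the strand of the gene, with matches to the AP-1 motif TGANTCA in capitals.
LAMA3, chr18:23872770-23873069, plus strand: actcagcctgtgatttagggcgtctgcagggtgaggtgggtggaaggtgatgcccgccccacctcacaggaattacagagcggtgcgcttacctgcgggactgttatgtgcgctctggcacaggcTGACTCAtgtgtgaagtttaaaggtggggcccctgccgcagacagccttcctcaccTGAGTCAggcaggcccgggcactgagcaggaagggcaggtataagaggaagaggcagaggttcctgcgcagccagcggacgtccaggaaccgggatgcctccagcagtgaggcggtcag
LAMB3, chr1:209652376-209652675, minus strand: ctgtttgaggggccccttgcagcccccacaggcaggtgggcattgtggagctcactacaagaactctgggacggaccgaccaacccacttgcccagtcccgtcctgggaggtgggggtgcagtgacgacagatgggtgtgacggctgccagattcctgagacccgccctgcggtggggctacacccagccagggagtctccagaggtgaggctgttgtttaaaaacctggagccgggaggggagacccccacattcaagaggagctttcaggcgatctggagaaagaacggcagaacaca
LAMB3, chr1:209651325-209651624, minus strand: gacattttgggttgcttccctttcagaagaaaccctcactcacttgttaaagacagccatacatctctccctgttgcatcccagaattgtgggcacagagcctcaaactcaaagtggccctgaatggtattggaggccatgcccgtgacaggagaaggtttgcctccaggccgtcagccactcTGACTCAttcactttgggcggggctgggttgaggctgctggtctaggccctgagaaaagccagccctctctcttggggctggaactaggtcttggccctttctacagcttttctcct
ITGA6, chr2:172427336-172427635, plus strand: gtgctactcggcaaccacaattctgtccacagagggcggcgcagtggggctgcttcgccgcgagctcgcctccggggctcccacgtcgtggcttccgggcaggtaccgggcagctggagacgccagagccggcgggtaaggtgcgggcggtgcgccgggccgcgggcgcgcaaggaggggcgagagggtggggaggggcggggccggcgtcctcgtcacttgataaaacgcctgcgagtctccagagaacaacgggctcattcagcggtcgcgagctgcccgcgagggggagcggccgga
COL17A1, chr10:104085831-104086130, minus strand: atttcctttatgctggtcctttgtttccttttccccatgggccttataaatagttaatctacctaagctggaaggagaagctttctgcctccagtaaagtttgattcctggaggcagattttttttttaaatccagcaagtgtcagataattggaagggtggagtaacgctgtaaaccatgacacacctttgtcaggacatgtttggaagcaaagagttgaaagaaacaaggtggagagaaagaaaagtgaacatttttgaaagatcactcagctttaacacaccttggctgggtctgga
The LAMA3 window lies at an internal start site of the gene as annotated. The TPM values do not show which start sites were used.

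The AP-1 motif, which reads the same on both strands, was found in 7.71% of the 35116 windows of this length in the RefSeq table. LAMA3 held 2 matches, the first base of which lay 125 and 69 bases before the start site, and the second overlapped an E-box (CAGGTG on either strand) by 2 bases. The LAMB3 window that begins at 209651325 held 1 match, and the other LAMB3 windows, both ITGA6 windows and the COL17A1 window held none. DST held 1 match, which began at base 26 of the transcript. The other letters searched on both strands were TGTGGT (RUNX), AACCNGTT (GRHL), GGGCGG (GC box) and CAGGTG (E-box), found in 13.1%, 1.73%, 45.0% and 20.6% of all windows. COL17A1 held none of the 5 motifs. Both ITGA6 windows held the same RUNX match, as they overlap, and no window of a member held the GRHL motif. These matches describe letters only, and no binding was measured.

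In HCT116-WT cells, where TPM can be compared between genes because they are scaled for length, CD151 was the highest of the genes at 249 ± 29.1 TPM (SD, n = 5), followed by ITGB4 at 179 ± 16.0, PLEC at 112 ± 12.3, ITGA6 at 97.9 ± 12.2, DST at 36.5 ± 1.90 and LAMB3 at 24.4 ± 1.32 TPM. COL17A1 (1.68 ± 0.662 TPM) and LAMA3 (1.54 ± 0.418 TPM) were at the lower end. The integrin, its tetraspanin and plectin were thus far above collagen XVII and the laminin α3 chain in these cells. The ranges of PLEC and ITGA6 overlapped, although PLEC was the higher in each of the 5 libraries, and those of COL17A1 and LAMA3 overlapped, while no other neighbours in this order overlapped. The same order was found in HCT116-CD276KO cells except that LAMA3 and COL17A1 changed places there, again with overlapping ranges. COL17A1 was the higher in 4 of the 5 HCT116-WT libraries, and LAMA3 was the higher in all 5 HCT116-CD276KO libraries.

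**Figure D1:**
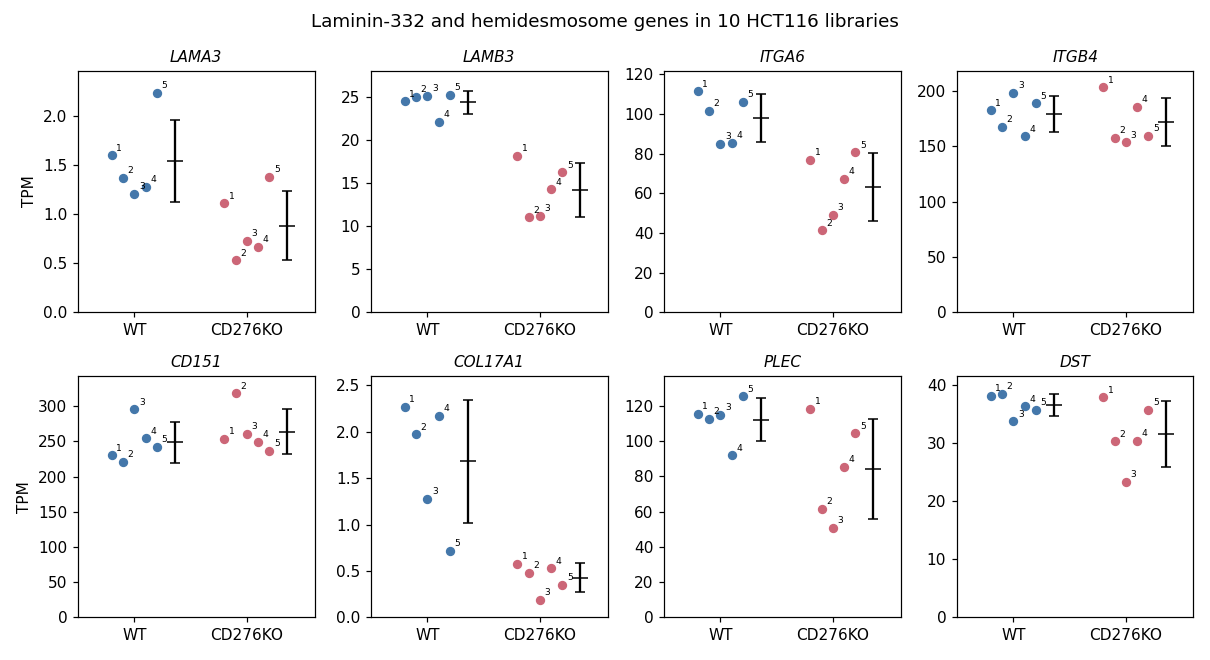
TPM (y axis, from 0) of the 8 genes in HCT116-WT (blue) and HCT116-CD276KO libraries (red), with the replicate number beside each point and the mean and SD (n = 5) at the side. LAMB3, ITGA6 and COL17A1 show no overlap between the groups, and HCT116-CD276KO replicates 2 and 3 are the lowest of their group in LAMB3, ITGA6, ITGB4, PLEC and DST.

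The groups were compared with limma on log2(TPM + 1) over 13581 genes whose mean reached 1 TPM, among which all 8 members were tested. At an adjusted p-value under 0.05, 4.87% of all genes tested were called, 556 lower and 106 higher in HCT116-CD276KO cells (389 lower and 191 higher after median-of-ratios scaling, 385 and 253 after quantile normalization). Of the 8 members 2 were called, LAMB3 and COL17A1, both lower, where 4.09% of all genes were called lower. COL17A1 and LAMA3 had means of 0.426 and 0.884 TPM in HCT116-CD276KO cells and passed the 1 TPM filter through their HCT116-WT values. At the lower level in both groups they would not have been tested, so for COL17A1 neither the call nor the missing overlap is independent of the filter. With all genes above 0 TPM tested, its adjusted p-value from limma was 0.0440. None of the 8 was called higher, beside 0.781% of all genes, and none was both called and changed by 2-fold on this scale, beside 0.486% of all genes. An unadjusted p-value under 0.05 was reached by 5 of the 8 and by 21.9% of all genes. The median log2 fold change of the members was -0.45, and that of all genes tested was -0.086. The groups did not overlap in 3 members, LAMB3, ITGA6 and COL17A1, beside 7.61% of all genes tested. The number of members called was 1, LAMB3 alone, without HCT116-WT replicate 1, 2 or 4 or without HCT116-CD276KO replicate 3, and also without HCT116-CD276KO replicates 2 and 3 together, an alternative chosen after seeing the data.

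**Figure D2:**
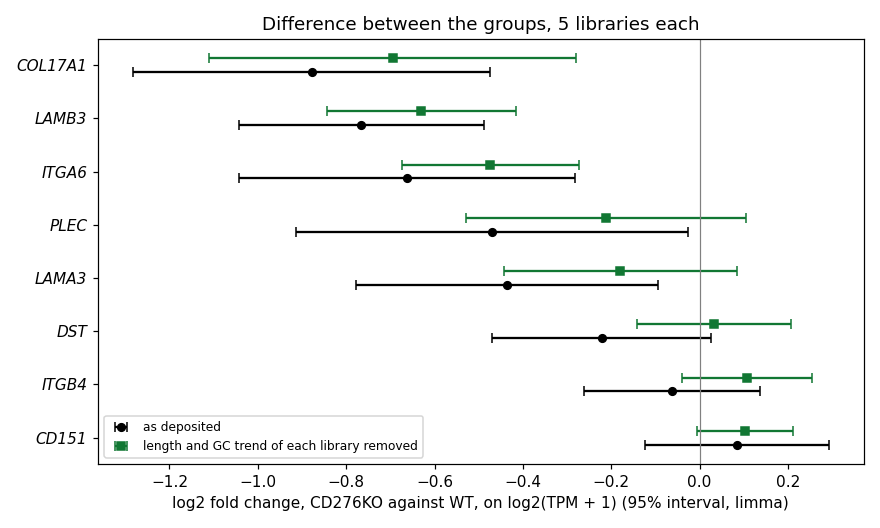
Log2 fold change of each gene, HCT116-CD276KO against HCT116-WT, on log2(TPM + 1) with its 95% interval from limma (x axis), for the values as deposited (black circles) and with the length and GC trend of each library removed (green squares). The intervals of COL17A1, LAMB3 and ITGA6 lie below 0 in both versions, and those of ITGB4, DST and CD151 include 0 in both.

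LAMB3 (ENSG00000196878, chromosome 1 from 209614870 to 209652425 on the minus strand of hg38) fell in HCT116-CD276KO cells. The HCT116-WT replicates 1 to 5 had 24.44, 25, 25.07, 22.05 and 25.22 TPM. The HCT116-CD276KO replicates 1 to 5 had 18.14, 10.98, 11.16, 14.26 and 16.2 TPM. All 5 HCT116-CD276KO libraries were under the lowest HCT116-WT library, and the HCT116-CD276KO libraries varied more among themselves, with a coefficient of variation of 22.1% against 5.43%. The mean fell from 24.4 to 14.1 TPM, to 58.1% of the HCT116-WT level, and the log2 fold change was -0.77 (standard error 0.13, adjusted p-value 0.00513 from limma, two-sided exact permutation p = 0.00794, the smallest that 5 against 5 allow). It was called under each of the alternatives run, with log2 fold changes from -0.86 to -0.56 and adjusted p-values from limma of 0.00143 to 0.0202. In bulk RNA, fewer cells that express a gene and less of its RNA in each cell cannot be told apart.

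LAMA3 (ENSG00000053747, chromosome 18 from 23689453 to 23956222, plus strand), the partner of LAMB3 in the trimer, was low in all libraries. The HCT116-WT replicates 1 to 5 had 1.6, 1.37, 1.21, 1.28 and 2.24 TPM, and the HCT116-CD276KO replicates 1 to 5 had 1.11, 0.53, 0.73, 0.67 and 1.38 TPM. Of the HCT116-CD276KO libraries 4 were under the lowest HCT116-WT library, and replicate 5 lay within the HCT116-WT range. The means were 1.54 ± 0.418 and 0.884 ± 0.351 TPM (SD, n = 5), and the log2 fold change was -0.44 (95% interval -0.78 to -0.093), which did not pass over all genes (adjusted p-value 0.137 from limma; two-sided exact permutation p = 0.0317). On TPM without a pseudocount, LAMA3 in HCT116-CD276KO cells was at 57.4% of the HCT116-WT mean, beside 58.1% for LAMB3.

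COL17A1 (ENSG00000065618, chromosome 10 from 104031286 to 104085880, minus strand), the transmembrane collagen of stratified hemidesmosomes, fell from a low level. The gene entered the test through its HCT116-WT values, as described above. The HCT116-WT replicates 1 to 5 had 2.27, 1.97, 1.28, 2.17 and 0.72 TPM. The HCT116-CD276KO replicates 1 to 5 had 0.58, 0.48, 0.19, 0.53 and 0.35 TPM. No HCT116-CD276KO library reached the lowest HCT116-WT library, which was replicate 5. The mean fell from 1.68 ± 0.662 to 0.426 ± 0.157 TPM (SD, n = 5), to 25.3% of the HCT116-WT level, the lowest share among the members. The log2 fold change was -0.88 (standard error 0.18, adjusted p-value 0.0204 from limma), and -1.72 with a pseudocount of 0.1. The call was lost without HCT116-WT replicate 1, 2 or 4 and without HCT116-CD276KO replicate 3, where adjusted p-values from limma were 0.0601, 0.0553, 0.0517 and 0.0534, and without HCT116-CD276KO replicates 2 and 3 together (adjusted p-value from limma 0.10, log2 fold change -0.81).

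ITGA6 (ENSG00000091409, chromosome 2 from 172427354 to 172506459, plus strand) encodes the α subunit of the hemidesmosomal integrin. The HCT116-WT replicates 1 to 5 had 111.46, 101.63, 84.85, 85.4 and 106.21 TPM. The HCT116-CD276KO replicates 1 to 5 had 76.99, 41.39, 49.02, 67.44 and 80.67 TPM. The highest HCT116-CD276KO library was under the lowest HCT116-WT library, but the spread within the HCT116-CD276KO group was wide, with replicates 2 and 3 at its lower end. The means were 97.9 ± 12.2 and 63.1 ± 17.2 TPM (SD, n = 5), with 64.4% of the HCT116-WT level in HCT116-CD276KO cells. The log2 fold change was -0.66 (95% interval -1.04 to -0.28), and the adjusted p-value from limma, 0.0528, was just over the threshold (two-sided exact permutation p = 0.00794). The gene was called in 6 of 19 alternatives, among them the correction for length and GC content (log2 fold change -0.47, adjusted p-value from limma 0.00902), over a range of adjusted p-values from 0.00902 to 0.136. Without HCT116-CD276KO replicates 2 and 3 the log2 fold change was -0.37. Exons of ITGA6 overlap those of 3 genes on the other strand, all with means under 1 TPM.

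ITGB4 (ENSG00000132470, chromosome 17 from 75721328 to 75757818, plus strand) encodes the β subunit, which pairs with α6 only. The HCT116-WT replicates 1 to 5 had 182.73, 167.55, 198.55, 159.11 and 189.2 TPM, and the HCT116-CD276KO replicates 1 to 5 had 203.52, 158.03, 153.79, 185.93 and 159.79 TPM. The groups overlapped over most of their range. The log2 fold change was -0.063 with a 95% interval from -0.26 to 0.14 (adjusted p-value 0.702 from limma), and its sign turned under median-of-ratios scaling (0.035) and under the length and GC correction (0.11).

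Whether partner genes moved by different amounts was tested within each library, on the log2 ratio of their TPM, for 3 pairs. The ratio of ITGA6 to ITGB4 was 0.610, 0.607, 0.427, 0.537 and 0.561 in HCT116-WT replicates 1 to 5. It was 0.378, 0.262, 0.319, 0.363 and 0.505 in HCT116-CD276KO replicates 1 to 5. All but replicate 5 of the HCT116-CD276KO libraries were under the whole HCT116-WT range. The lowest ratios of the groups were those of HCT116-WT replicate 3 and HCT116-CD276KO replicate 2, the libraries with the highest correlation with GC content. The part of GC content in the ratio was not tested beyond the correction below. The mean log2 ratio was -0.88 ± 0.21 in HCT116-WT and -1.49 ± 0.35 in HCT116-CD276KO cells (SD, n = 5), a difference of -0.61 (two-sided exact permutation p = 0.0159, 0.0476 after adjustment over the 3 ratios). With 1 library left out the adjusted value passed in 2 of 10 cases, without HCT116-WT replicate 3 or HCT116-CD276KO replicate 5 (0.0476). It was 0.0952 in all others, and the differences over these fits were -0.73 to -0.50. At these group sizes the test passes after adjustment only where the groups do not overlap, so these values do not measure how steady the difference was. After the length and GC correction the difference was -0.59 (two-sided exact permutation p = 0.00794, 0.0238 after adjustment). Without HCT116-CD276KO replicates 2 and 3 together it was -0.41 (two-sided exact permutation p = 0.0714, 0.214 after adjustment). With so few libraries left, this test could not have passed after adjustment beside the other ratios, whatever the values of this ratio.

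The ratio of LAMA3 to LAMB3 ran from 0.0483 to 0.0888 in HCT116-WT and from 0.0470 to 0.0852 in HCT116-CD276KO libraries. The mean log2 ratios were -4.02 and -4.06, and the difference of -0.041 was far smaller than the spread between libraries (SD 0.33 and 0.35, n = 5; two-sided exact permutation p = 0.849). Its sign turned under several alternatives. For the plakins PLEC and DST the ratio ran from 2.53 to 3.51 and from 2.03 to 3.12, with a difference of -0.25 on the log2 scale that did not pass (two-sided exact permutation p = 0.143, 0.214 after adjustment).

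**Figure D3:**
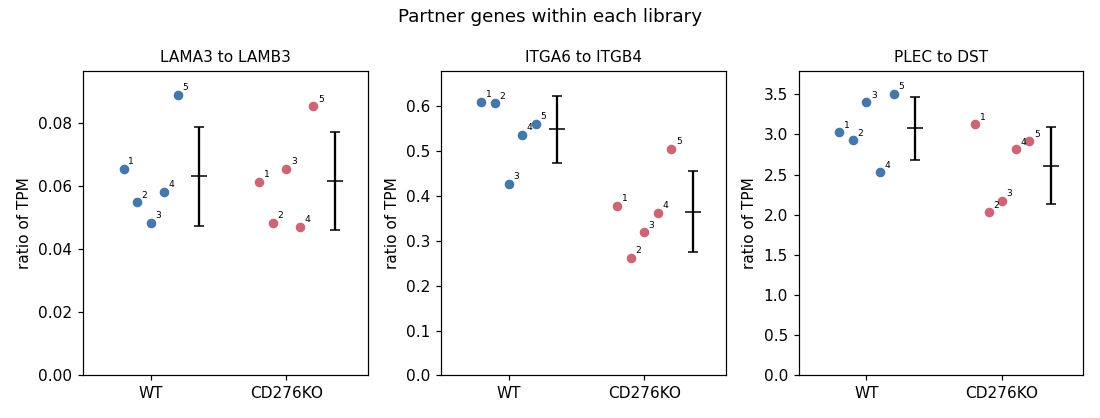
Ratio of TPM within each library (y axis, from 0) for LAMA3 to LAMB3, ITGA6 to ITGB4 and PLEC to DST in HCT116-WT (blue) and HCT116-CD276KO libraries (red), with replicate numbers and the mean and SD (n = 5) at the side. The ITGA6 to ITGB4 ratio of HCT116-CD276KO libraries reaches 0.505 and that of HCT116-WT libraries goes down to 0.427, while the other pairs overlap over most of their range.

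PLEC (ENSG00000178209, chromosome 8 from 143915153 to 143976734, minus strand), the linker between β4 and keratin, and DST (ENSG00000151914, chromosome 6 from 56457987 to 56954830, minus strand) have the longest transcripts of the members, 14804 and 24709 bases. For PLEC the HCT116-WT replicates 1 to 5 had 115.38, 112.56, 114.77, 91.83 and 125.31 TPM, and the HCT116-CD276KO replicates 1 to 5 had 118.36, 61.6, 50.69, 85.51 and 104.33 TPM. The low values of the second group were those of replicates 2 and 3, and replicate 1 was within the HCT116-WT range. The log2 fold change was -0.47 (95% interval -0.91 to -0.025, adjusted p-value 0.206 from limma), and -0.13 without replicates 2 and 3. DST, the dystonin gene, had 38.1, 38.42, 33.75, 36.29 and 35.75 TPM in HCT116-WT replicates 1 to 5 against 37.88, 30.3, 23.29, 30.39 and 35.76 TPM in the HCT116-CD276KO replicates. Its groups overlapped, and its log2 fold change was -0.22 (95% interval -0.47 to 0.027, adjusted p-value 0.271 from limma).

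CD151 (ENSG00000177697, chromosome 11 from 832887 to 839831, plus strand), the tetraspanin partner, has the shortest transcript of the members, 1545 bases. The HCT116-WT replicates 1 to 5 had 230.29, 221.13, 295.78, 254.29 and 242.68 TPM, and the HCT116-CD276KO replicates 1 to 5 had 253.62, 318.64, 260.79, 249.29 and 236.72 TPM. Here HCT116-CD276KO replicate 2 was the highest library of all, where it was among the lowest of its group for most of the longer members. HCT116-WT replicate 3 came next, and these are the libraries with the highest correlation with GC content (0.48 and 0.61). HCT116-CD276KO replicate 3, with a length trend of -0.49 beside -0.52 in replicate 2, had 260.79 TPM. The parts of length and GC content were not tested beyond the correction below. The log2 fold change was 0.084 with a 95% interval from -0.12 to 0.29 (adjusted p-value 0.616 from limma), and it turned to -0.0065 without HCT116-CD276KO replicates 2 and 3. Exons of CD151 overlap those of POLR2L on the other strand, which had a mean of 201 TPM. The libraries keep the strand, but whether the counting used it is not given in the sources used here, so reads of the overlap may belong to either gene.

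The members followed the length and GC trends of the libraries to different degrees. HCT116-CD276KO replicates 2 and 3 were the lowest 2 libraries of their group in 5 of the 8 members (LAMB3, ITGA6, ITGB4, PLEC and DST). With each library's trend with transcript length and GC content removed, the SD among HCT116-CD276KO libraries on the log2 scale went down in each member. It went from 0.51 to 0.34 for PLEC, from 0.41 to 0.21 for ITGA6 and from 0.26 to 0.17 for DST. It also went from 0.26 to 0.15 for LAMA3, from 0.16 to 0.083 for CD151 and from 0.30 to 0.23 for LAMB3. For ITGB4 it went from 0.17 to 0.15 and for COL17A1 from 0.17 to 0.13. Both trends were removed together, so these changes cannot be assigned to length alone. The log2 fold changes were then -0.63 for LAMB3, -0.70 for COL17A1 and -0.47 for ITGA6, each with an adjusted p-value under 0.05 from limma (0.00241, 0.0416 and 0.00902), beside 9.64% of all genes called after the same step and 5.19% called lower. They were -0.21 for PLEC, -0.18 for LAMA3 and 0.033 for DST (adjusted p-values from limma 0.384, 0.373 and 0.829). The groups still did not overlap in LAMB3 and ITGA6, but those of COL17A1 did after this step. How much of each difference goes with this trend was not tested beyond this correction. For PLEC and DST the trend rests on few genes, since 91 of the 13472 genes with a known length are longer than PLEC and 6 are longer than DST.

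**Figure D4:**
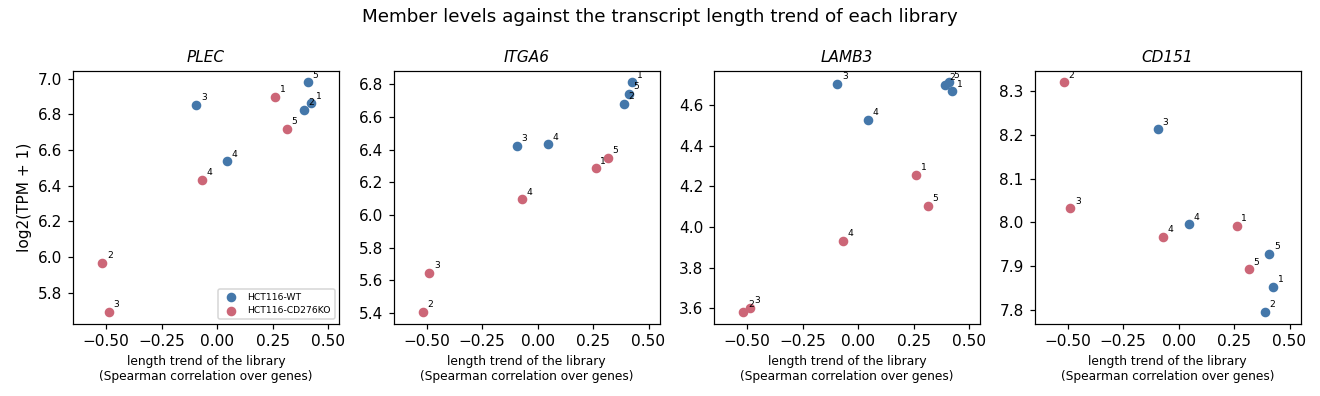
Level of PLEC, ITGA6, LAMB3 and CD151 (y axis, log2(TPM + 1), not starting at 0) against the length trend of each library (x axis, Spearman correlation over genes between the library's deviations and transcript length), with replicate numbers, in HCT116-WT (blue) and HCT116-CD276KO libraries (red). HCT116-CD276KO replicates 2 and 3, at -0.52 and -0.49, have the lowest PLEC, ITGA6 and LAMB3, and replicate 2 has the highest CD151.

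Genes around the hemidesmosome were described from 4 lists with 38 genes, of which 34 were tested. Over the lists 6 genes fell, none rose and 28 did not pass, with a median log2 fold change of -0.27, beside 4.09% called lower, 0.781% called higher and a median of -0.086 over all genes tested. Most of the calls were in the list of keratins and other plakins, where 5 of 7 genes tested fell. KRT8 and KRT18, the keratin pair of simple epithelia, fell from 2082 ± 177 to 1553 ± 110 TPM and from 821 ± 32.8 to 625 ± 42.6 TPM (SD, n = 5), log2 fold changes of -0.42 and -0.39 (adjusted p-values from limma 0.00441 and 0.00263). KRT8 had an adjusted p-value of 0.0643 from limma after median-of-ratios scaling, and KRT18 one of 0.0523. Both genes overlap on opposite strands and have pseudogene copies, so their values may share reads. KRT19 also fell, by 0.29 on the log2 scale (adjusted p-value from limma 0.0486). This call lay just under the threshold, and it was not followed under the alternatives. EVPL, which encodes the plakin envoplakin, fell from 8.82 to 5.53 TPM (log2 fold change -0.59, adjusted p-value from limma 0.0095, and 0.0531 without HCT116-CD276KO replicates 2 and 3). MACF1, a plakin that links actin and microtubules, fell from 53.6 to 32.8 TPM (log2 fold change -0.74, adjusted p-value from limma 0.0329), a call that held in only 3 of the 10 fits without 1 library, those without HCT116-WT replicate 3 or HCT116-CD276KO replicate 1 or 5 (adjusted p-values from limma 0.0222 to 0.0835 over these fits). DSP and PPL had log2 fold changes of -0.47 and -0.48 and did not pass. KRT5 and KRT14, the keratins that stratified hemidesmosomes anchor, had means under 0.2 TPM in both groups and, like KRT20, were not tested.

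Of 8 genes tested from the list of the basement membrane zone and laminin processing, 1 fell, FERMT1. It encodes kindlin-1, an activator of integrins in epithelia, and went from 23.6 ± 2.92 to 13.9 ± 2.79 TPM (SD, n = 5; log2 fold change -0.74, adjusted p-value from limma 0.00817). The other laminin chains of this list, LAMA5, LAMB1, LAMB2 and LAMC1, did not pass and had log2 fold changes of -0.20, -0.20, 0.0026 and -0.54. COL7A1, the collagen of anchoring fibrils, had means of 0.98 and 0.82 TPM and was not tested. None of the 9 receptors and tetraspanins passed. They ran from -0.32 to 0.11 on the log2 scale, with 0.00283 as the lowest unadjusted p-value, that of SDC1 (adjusted 0.0539, limma), and CD63, the highest in level, was at 598 and 648 TPM. Their other laminin-binding integrin genes ITGA3 and ITGB1 had log2 fold changes of -0.12 and -0.26 (adjusted p-values from limma 0.341 and 0.222). None of the 10 signalling genes passed either, with a range from -0.79 in EGFR to 0.062 in FYN, and RAC1, the highest in level, was at 318 and 314 TPM.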

How the data were processed

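The authors mapped single reads of poly(A) RNA to hg38/GRCh38 with STAR 2.5.2b and quantified Ensembl 86 genes with RSEM 1.3.0 and featureCounts 1.5.1. The deposited values are TPM, which the authors divided by transcript length and scaled to an equal sum per library, and which program gave them is not given in the sources used here. Read counts and depth are not kept in TPM, so precision came from the 5 libraries of each group.

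Symbols (for 56947 of 58050 identifiers), positions, canonical transcript lengths and GC content came from GENCODE 44 on hg38, a newer annotation than the authors' on the same assembly. Promoter windows came from the RefSeq table. Genes whose mean over the 10 libraries reached 1 TPM entered limma 3.58.1 (R 4.3.3) as log2(TPM + 1), with a variance trend and Benjamini-Hochberg adjustment over all 13581 genes. Fold changes on this scale understate those of low genes. Single genes and ratios were also compared with two-sided exact permutation tests in scipy 1.17.1. The length and GC correction subtracted from each library a local regression (span 0.3) of its deviations from gene means, over 13472 genes, which also centres the libraries. In simulated data for this comparison with 13581 genes, the limma fit recovered 93 of 96 genes changed by 1 and 103 of 104 changed by 2 on the log2 scale, with 11 false calls. With a length trend added to the simulated libraries it recovered 72 of 96 and 102 of 104, with 1 false call, and after the length and GC correction (13472 genes) 93 of 96 and 103 of 104, with 11 false calls. The simulated noise was independent between genes, the changed genes had means of at least 5 TPM, and no GC trend was added. These figures therefore check the code and do not give the power or error rate for the members.

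The genes named were CD276, the 8 members, the called genes of each of 4 related lists (at most 4 by adjusted p-value, otherwise the highest in level) and the 2 genes most alike to each member. KRT19, SDC1, FYN, DSP, PPL and further list members were named beyond this rule, after their values were seen. Members, lists and motifs were chosen with earlier results of these data known. Alternatives tried were a pseudocount of 0.1, the filter set to any value above 0 TPM or to a mean of 5 TPM, median-of-ratios scaling, quantile normalization, the length and GC correction, the replicate number as a block, robust variance, each library left out in turn and, added after seeing the data, HCT116-CD276KO replicates 2 and 3 left out together. The study describes the 5 samples of each group as biological replicates.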

Additional observations from a re-analysis of the deposited data

Results flagged for a closer look

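In 38 groups of 5 values, over 16 named genes and 3 ratios, the gap between an extreme value and its neighbour was taken as a share of the group's range. It passed the 95% limit of 0.71 in 2 groups, where chance gives 1.9. LAMB3 had 22.05 TPM in HCT116-WT replicate 4, and the remaining HCT116-WT libraries had 24.44 to 25.22 TPM, a gap of 0.754 of the range. KRT8 had 1747 TPM in HCT116-CD276KO replicate 2, and the other HCT116-CD276KO libraries had 1474 to 1532 TPM, a gap of 0.788 of the range.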

How the results depend on the processing

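The number of genes called, 662 over all genes, was 1299 after the length and GC correction, 378 with the replicate number as a block, 339 without HCT116-CD276KO replicates 2 and 3, and 343 to 857 over the fits without 1 library. It was 345, 376, 421 and 343 without HCT116-WT replicates 1, 2, 4 and 5, and 407 and 375 without HCT116-CD276KO replicates 3 and 4. It was 663 without HCT116-WT replicate 3, and 857, 462 and 695 without HCT116-CD276KO replicates 1, 2 and 5. These fits all have fewer samples, and the cause of the differences was not tested. The 2 members called were between 1 and 3 with each library left out, and 1 without HCT116-CD276KO replicates 2 and 3. With genes of at least 5 TPM only, LAMA3 and COL17A1 were not tested and ITGA6 was called (adjusted p-value 0.0468 from limma).

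Signs turned for ITGB4 (0.035 after median-of-ratios scaling, 0.11 after the length and GC correction, 0.026 without HCT116-CD276KO replicates 2 and 3), DST (0.033 after the correction), CD151 (-0.0065 without replicates 2 and 3) and RAC1 (0.078 after median-of-ratios scaling, 0.0094 after quantile normalization, 0.053 after the correction, -0.048 to 0.010 over the fits without 1 library, above 0 without HCT116-CD276KO replicate 1), none of which was called. The LAMA3 to LAMB3 difference of -0.041 was 0.079 after the correction, 0.021 without HCT116-CD276KO replicates 2 and 3, and -0.17 to 0.090 with each library left out, above 0 without HCT116-WT replicate 5 (0.090) and without HCT116-CD276KO replicates 2 (0.037) and 4 (0.046). The ITGA6 to ITGB4 difference was -0.73 to -0.50 with each library left out. Its p adjusted over the 3 ratios was 0.0476 to 0.0952 (exact permutation test). It passed in 2 of 10 cases, those where the groups did not overlap, as it only can at these group sizes. Without HCT116-CD276KO replicates 2 and 3 the difference was -0.41 (0.214 by the same test, which could not have passed with so few libraries).

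Libraries with the same replicate number did not deviate together: the correlations of their deviations over genes were -0.18 to 0.12, over 0.1 in 1 of 5 pairs, and 1 of 10 libraries correlated best with its own number. With the replicate block LAMB3, COL17A1 and ITGA6 were called (ITGA6 at an adjusted p-value of 0.0428 from limma), and the ITGA6 to ITGB4 difference of -0.61 had a p of 0.0625 by exact sign permutation, the smallest that 5 pairs allow, and 0.188 after adjustment. TPM without counts limit what can be said of LAMA3 and COL17A1, which lie near 1 TPM. Leaving out HCT116-CD276KO replicates 2 and 3 together was chosen after seeing the data.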

Other observations

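Over the 10 libraries, the genes whose log2(TPM + 1) was most alike to that of ITGA6 were OCLN, which encodes the tight junction protein occludin (Pearson r = 0.996), and EGFR, the epidermal growth factor receptor (r = 0.995). EGFR stood at 26.9 ± 3.13 TPM in HCT116-WT and 15.9 ± 5.58 TPM in HCT116-CD276KO cells (SD, n = 5), a log2 fold change of -0.79 that did not pass over all genes (adjusted p-value 0.0572 from limma). For LAMB3 they were KIAA0040 (0.992) and KLHL29 (0.991), for PLEC FAM168B (0.997) and TCF20 (0.994), for DST MINK1 (0.978) and HFE (0.968), and for LAMA3 SNX30 (0.970) and FAM118B (0.965). For ITGB4 they were MYO15B (0.956) and CES3 (0.951), for CD151 KREMEN2 (0.977) and TMEM9 (0.973), and for COL17A1 TMEFF1 (0.942) and DNM3 (0.938). The highest correlations over all genes tested tend to be high in 10 points that share 2 groups and the length trend of the libraries, so these are descriptions of the libraries and say nothing of shared control.

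Among the markers of colorectal epithelium, EPCAM fell from 260 ± 29.2 to 202 ± 11.7 TPM and CDH1, which encodes E-cadherin, from 42.7 ± 4.92 to 20.4 ± 5.73 TPM (SD, n = 5; adjusted p-values from limma 0.0322 and 0.00311). CDX2, an intestinal transcription factor, stood at 8.91 and 9.27 TPM (adjusted p-value 0.786 from limma). Their part in the differences of the laminin and hemidesmosome genes was not tested.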
